A study of Mus musculus with 21 samples.

Results

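The 10 genes followed here mark states other than naive pluripotency: the formative and primed epiblast markers *Otx2*, *Pou3f1* and *Fgf5*, the mesendoderm markers *Eomes* and *T*, the primitive endoderm markers *Gata6*, *Sox17* and *Dab2*, the trophectoderm marker *Cdx2* and the neural marker *Nes*. They were chosen by name as markers of these states, with earlier results of these data known, and are 10 of the 51467 mouse genes in the count tables. Each symbol matched 1 Ensembl gene in both tables. The cultures were mouse embryonic stem cells (ESCs) kept in serum-containing medium with LIF and 2i (PD0325901 and CHIR99021, inhibitors of MEK and GSK3 that hold ESCs in the naive state). The wild type was represented by 3 cultures and the *Ddx6* KO by 4, namely 2 of each of 2 clones made with Cas9. Each KO clone is a single line grown from sorted cells, so a difference seen in only 1 clone may be a property of that clone. Both clones were made with the same guide RNA and sorting, and effects of these steps cannot be told apart from loss of *Ddx6*. *Ddx6* encodes an RNA helicase of P-bodies that takes part in mRNA decapping and translational repression.

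Every culture, wild type and KO alike, was labelled with 500 µM 4-thiouridine (4sU) for 30 min. Its RNA was then divided between a pulldown of labelled, newly made RNA (nascent RNA) and total RNA, which gave 14 libraries. The 4sU libraries were sequenced in 2 runs whose counts were summed here. Library totals were 2441639 to 3570192 counts for 4sU and 5724179 to 7369651 counts for total RNA. Values per library are counts scaled to the library total (CPM), and 3 counts over all libraries of a group correspond to 0.357 CPM for wild-type 4sU, 0.232 for KO 4sU, 0.155 for wild-type total RNA and 0.111 for KO total RNA. The labels do not say that cultures of a line were started independently, so p values measure the spread between these samples only. *Ddx6* itself, the targeted gene, was at 345 ± 26.7 CPM (SD, n = 3) in wild-type total RNA and 44.2 ± 24.7 (n = 4) in KO total RNA. All 10 ESC markers examined, among them *Pou5f1* and *Nanog*, were detected in every group, and together they made up 4304 to 4458 CPM in wild-type and 5086 to 5310 CPM in KO total RNA. Of the 10, 6 were higher and 2 lower by the adjusted p in total RNA. Over all 14518 tested genes, 2829 were higher and 4498 lower by it. *Dppa3*, a naive marker at low counts, was called lower (log2 fold change -1.04, SE 0.32, edgeR adjusted p = 0.00560).

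Naive ESCs correspond to the epiblast of the blastocyst before implantation and carry little RNA of other lineages. When they move toward the formative and primed states, OTX2 and POU3F1 (also called OCT6) are switched on first. OTX2 redirects OCT4 to new enhancers, and FGF5 follows as the classic marker of the post-implantation epiblast. The T-box factors EOMES and T (Brachyury) then mark the primitive streak and its mesendoderm, and the intermediate filament protein nestin, product of *Nes*, marks neural progenitors. Apart from this sequence, GATA6, SOX17 and the endocytic adaptor DAB2 mark primitive endoderm, and CDX2 specifies trophectoderm.

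DDX6 takes part in silencing by microRNAs, and a family of microRNAs of ESCs and the early epiblast shares a seed, so the members' 3′ UTRs were searched for it. The mature sequences below, from RefSeq with positions on GRCm38, show the seed (bases 2 to 8) in capitals. miR-294-3p lies at chr7:3220691-3220712 and miR-302d-3p at chr3:127545665-127545687, both on the plus strand.
miR-294-3p: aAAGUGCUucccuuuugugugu
miR-302d-3p: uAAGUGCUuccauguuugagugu

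The search letters on the mRNA strand were the heptamer AGCACTT, the heptamer shifted by 1 base, GCACTTA, and the octamer in which both overlap, AGCACTTA. None of the 10 principal 3′ UTRs, which run from 421 bases in *Nes* to 1929 bases in *Dab2*, holds any of them, against 19% of 11877 tested protein-coding genes. This says only that these letters are not in these windows. The AU-rich heptamer TATTTAT, a core of elements bound by decay factors, occurs in 1 of the 10, *Pou3f1*, against 27.9% of the tested genes. *Pou3f1* is a single-exon gene on the plus strand of chromosome 4 (GRCm38, 124656807 to 124660655), and its 3′ UTR of 1599 bases holds 4 copies, shown in capitals with their position counted from the first base of the 3′ UTR. They are given because, of the 5 members tested, *Pou3f1* has the largest fitted difference between its nascent and total RNA response. That difference did not pass the test, and a link between it and the copies was not tested.
*Pou3f1* 589 to 595: tacggttttTATTTATtcgtggagc
*Pou3f1* 667 to 673: tgtatgctgTATTTATcggggcccc
*Pou3f1* 1370 to 1376: acccatctcTATTTATtttctggat
*Pou3f1* 1549 to 1555: ttccctttaTATTTATgttatagta

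The markers split into 5 that could be tested and 5 that fell below the minimum for testing. *Nes*, *Otx2*, *Eomes*, *Pou3f1* and *Dab2* reached 3 CPM in at least 3 libraries, the minimum used for testing, and each did so in at least 4 of the 6 wild-type and 5 of the 8 KO libraries. *Fgf5*, *T*, *Gata6*, *Sox17* and *Cdx2* did not, with 4, 13, 47, 100 and 18 counts over all 14 libraries. To compare genes with each other, CPM were divided by the deposited gene length in kilobases. On that scale, wild-type total RNA was ordered *Nes* (12.2 ± 0.284 CPM per kb, SD, n = 3), *Otx2* (4.71 ± 0.680), *Eomes* (3.74 ± 0.592), *Pou3f1* (1.7 ± 0.269), *Dab2* (0.733 ± 0.306), *Sox17* (0.443 ± 0.0714), *Gata6* (0.226 ± 0.0946) and *T* (0.203 ± 0.0844), with *Fgf5* and *Cdx2* at 0 counts. The ranges of *Otx2* and *Eomes*, of *Dab2* and *Sox17*, and of *Gata6* and *T* overlapped, so those neighbours were not separated. *Nes* was the one member above the median of the 14518 tested genes, which was 7.62 CPM per kb, and stood at their percentile 61.1. *Otx2* stood at percentile 40.3, *Dab2* at 14.1 and *T* at 3.97.

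**Figure D1:**
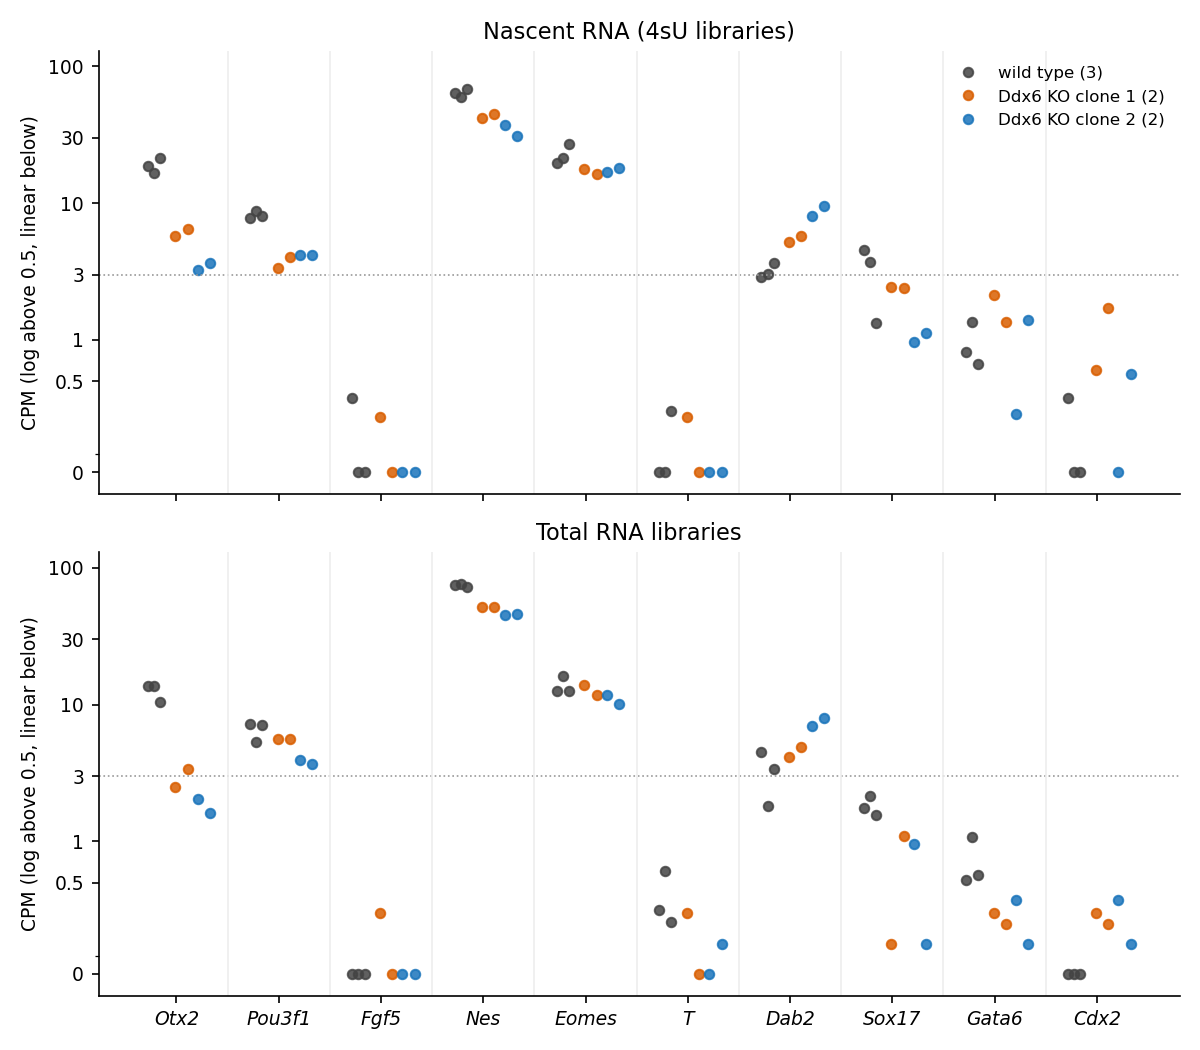
CPM of the 10 markers in every library, nascent RNA above and total RNA below, on an axis that is logarithmic above 0.5 CPM and linear below it. Points are single libraries of wild type (3), *Ddx6* KO clone 1 (2) and clone 2 (2), and the dotted line is at 3 CPM. *Otx2* lies between 10.5 and 13.7 CPM in wild-type and between 1.61 and 3.41 CPM in KO total RNA.

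In *Ddx6* KO cells the order differed, with *Otx2* in a lower and *Dab2* in a higher place. KO total RNA ran *Nes* (7.92 ± 0.573 CPM per kb, n = 4), *Eomes* (3.22 ± 0.420), *Dab2* (1.35 ± 0.403), *Pou3f1* (1.23 ± 0.271) and *Otx2* (0.890 ± 0.289), with the 5 remaining members between 0.0331 and 0.145. The ranges of *Dab2* and *Pou3f1* and of *Pou3f1* and *Otx2* overlapped. Nascent RNA gave the same leading order in wild type, with *Nes* at 10.4 ± 0.762, *Otx2* at 7.05 ± 0.917, *Eomes* at 6.16 ± 1.05 and *Pou3f1* at 2.13 ± 0.130 CPM per kb. The ranges of *Otx2* and *Eomes* overlapped there too. KO nascent RNA ran *Nes* (6.31 ± 0.971, n = 4), *Eomes* (4.68 ± 0.245), *Otx2* (1.78 ± 0.589), *Dab2* (1.6 ± 0.456) and *Pou3f1* (1.03 ± 0.108). In it *Otx2* thus stood above *Pou3f1*, and the ranges of *Otx2* and *Dab2* overlapped.

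Differences between genotypes were tested with the edgeR quasi-likelihood test over all 14518 genes that passed the minimum, with Benjamini-Hochberg adjusted p values. A gene was called at an adjusted p below 0.05 and a log2 fold change beyond 1 in either direction. In nascent RNA 2 of the 5 tested members were called, both lower in KO, where 10.9% of all tested genes were called. In total RNA 1 of 5 was called, also lower, against 10.1%. By the adjusted p alone, all 5 passed in nascent RNA and all 5 in total RNA, where 41.6% and 50.5% of all tested genes passed. After TMM scaling, the KO libraries did not overlap the wild-type libraries for 5 of 5 members in nascent RNA, against 41.7% of all tested genes, and for 3 of 5 in total RNA, against 52.4%. In each assay 4 of the 5 were lower and 1, *Dab2*, was higher. The median log2 fold change of the 5 was -0.94 in nascent RNA, against 0.00 over all tested genes, and -0.62 in total RNA, against -0.10. Scaling by library size alone raised the median of all genes to 0.21 in nascent RNA and 0.06 in total RNA, and under it each of the 5 kept its direction in both assays.

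**Figure D2:**
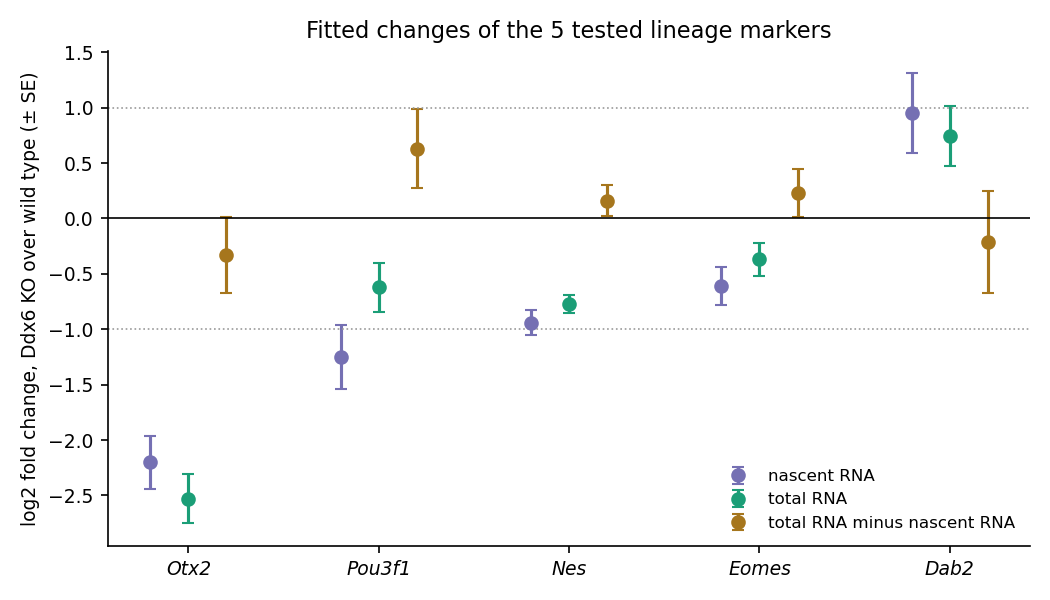
Fitted log2 fold change (*Ddx6* KO over wild type, ± SE) of the 5 tested markers in nascent RNA, in total RNA and for the difference between both, with dotted lines at -1 and 1. *Otx2* is lowest in both assays, at -2.20 and -2.53, and no marker's difference between the assays passed the test.

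*Otx2*, a homeobox factor of the formative epiblast, showed the largest difference of the members in both assays. Its total RNA was at 13.6, 13.7 and 10.5 CPM in the wild-type cultures, whereas KO clone 1 had 2.48 and 3.41 CPM and KO clone 2 had 2.04 and 1.61 CPM. The raw counts behind these were 78, 90 and 74 in wild type and 15, 25, 15 and 10 in KO. All 4 KO libraries lay far below all 3 wild-type libraries, in both clones. The log2 fold change was -2.53 (SE 0.22, edgeR adjusted p = 8.0e-15), a 5.77-fold lower level. In these bulk libraries, fewer cells with *Otx2* RNA and less of it per cell cannot be told apart. Nascent *Otx2* was at 18.8, 16.5 and 21.4 CPM in wild type, at 5.76 and 6.45 in clone 1 and at 3.22 and 3.64 in clone 2. Here too the groups were apart, with clone 2 the lower of the clones. Its log2 fold change was -2.20 (SE 0.24, edgeR adjusted p = 2.4e-11), a 4.59-fold lower level. *Otx2* lies on the minus strand of chromosome 14 (GRCm38, 48657677 to 48673819). The antisense gene *Otx2os1* overlaps it, as does *Gm49154* on its own strand, and counting was strand-specific.

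*Pou3f1*, the POU factor of the formative epiblast, fell in nascent RNA and less in total RNA. Nascent *Pou3f1* was at 7.78, 8.75 and 8.02 CPM in wild type and at 3.34, 4.07, 4.19 and 4.20 CPM in KO, from 69 counts in the 3 wild-type and 51 in the 4 KO libraries. Every KO library was below every wild-type library. The log2 fold change was -1.25 (SE 0.29, edgeR adjusted p = 0.000319). Total *Pou3f1* was at 7.16, 5.34 and 7.11 CPM in wild type and at 5.63, 5.60, 3.94 and 3.70 CPM in KO. On this unscaled CPM scale clone 1 overlapped wild type while clone 2 lay below it, and after TMM scaling the groups no longer overlapped. The log2 fold change in total RNA was -0.62 (SE 0.22, edgeR adjusted p = 0.0149). The adjusted p missed 0.05 in 7 of 17 alternative settings, with clone 1 alone at -0.36 (adjusted p = 0.246) and clone 2 alone at -0.91 (adjusted p = 0.00485).

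*Fgf5*, the secreted factor of the primed epiblast, was at the limit of detection in every group. It had 0 counts in the 3 wild-type total RNA libraries and 2 counts in 1 of the 4 KO total RNA libraries, the first culture of clone 1. In nascent RNA it had 1 count in 1 wild-type and 1 count in 1 KO library. All 4 groups were thus below 3 counts. No difference was detectable at this depth.

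*Nes* was the most abundant member and, of those tested, had the smallest SE of the log2 fold change in both assays. Total *Nes* was at 75.1, 75.9 and 72.5 CPM in wild type, whereas clone 1 had 51.5 and 51.6 CPM and clone 2 had 45.2 and 45.8 CPM. The groups were separate, and the cultures of a clone were close to each other. The log2 fold change was -0.77 (SE 0.08, edgeR adjusted p = 6.3e-12), which passed the adjusted p but not the fold threshold. Nascent *Nes* was at 63.9, 59.2 and 68.5 CPM in wild type and at 41.6, 44.8, 37.1 and 31.1 CPM in KO. The groups were again separate, at a log2 fold change of -0.94 (SE 0.11, edgeR adjusted p = 1.1e-10). This falls just short of the fold threshold, while clone 2 alone, at -1.11, and the fit without the second culture of clone 1, at -1.01, were past it. *Nes* lies on the plus strand of chromosome 3 (GRCm38, 87971078 to 87980451).

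*Eomes*, which encodes a T-box factor of the streak and of trophoblast, was moderately lower in nascent RNA. Nascent *Eomes* was at 19.7, 21.5 and 27.1 CPM in wild type and at 17.9, 16.3, 16.8 and 18.2 CPM in KO. The KO libraries were closely grouped just below the lowest wild-type library. The log2 fold change was -0.61 (SE 0.17, edgeR adjusted p = 0.00237). Without the third wild-type culture it was -0.46 (adjusted p = 0.0522), and in the second sequencing run alone -0.31 (adjusted p = 0.382). Total *Eomes* was at 12.6, 16.3 and 12.5 CPM in wild type and at 13.9, 11.7, 11.8 and 10.1 CPM in KO, so that the groups overlapped. Its log2 fold change of -0.37 (SE 0.15, edgeR adjusted p = 0.0308) missed 0.05 in 10 of 17 alternative settings, with adjusted p values up to 0.273. *Eomes* lies on the plus strand of chromosome 9 (GRCm38, 118478212 to 118486132).

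*T* (Brachyury) was near the floor. It had 2, 4 and 2 counts in wild-type total RNA and 2, 0, 0 and 1 in KO total RNA, which is 0.415 ± 0.173 CPM (n = 3) and 0.123 ± 0.158 CPM (n = 4). In nascent RNA there was 1 count in each genotype. With 3 against 4 libraries the smallest two-sided p of an exact permutation test is 0.0571, so this test cannot pass 0.05. For *T* it gave 0.114 in total RNA.

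*Dab2*, the one member that was higher in KO, encodes an adaptor of clathrin-mediated endocytosis. Nascent *Dab2* was at 2.87, 3.03 and 3.68 CPM in wild type, whereas clone 1 had 5.16 and 5.77 CPM and clone 2 had 8.06 and 9.52 CPM. All KO libraries were above all wild-type libraries, and clone 2 was above clone 1. The counts were low, 27 over the wild-type and 93 over the KO libraries, and the log2 fold change was 0.95 (SE 0.36, edgeR adjusted p = 0.0270). Total *Dab2* was at 4.54, 1.83 and 3.41 CPM in wild type, whereas clone 1 had 4.14 and 4.92 CPM and clone 2 had 6.92 and 8.04 CPM. Here clone 1 overlapped wild type and clone 2 did not. The log2 fold change was 0.74 (SE 0.27, edgeR adjusted p = 0.0192). Clone 1 alone gave 0.36 (adjusted p = 0.385) and clone 2 alone 1.06 (adjusted p = 0.00183), and without the second wild-type culture the value was 0.45 (adjusted p = 0.212). The adjusted p missed 0.05 in 9 of 19 alternatives in nascent RNA and in 5 of 17 in total RNA, while *Dab2* passed both thresholds in 7 of 19 and 2 of 17. *Dab2* lies on the plus strand of chromosome 15 (GRCm38, 6299788 to 6440712).

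Feeder fibroblasts can accompany ESCs, so 6 fibroblast markers were read beside *Dab2*, the member that was higher in KO. Their summed level was 1.22 to 2.99 CPM in wild-type and 4.31 to 5.70 CPM in KO total RNA, and 1.01 to 2.87 and 3.40 to 5.80 CPM in nascent RNA. Nearly all of it came from *Col1a1*, a collagen gene, at 2.17 ± 0.889 CPM in wild-type and 4.85 ± 0.741 CPM in KO total RNA. Of the 6, 5 had no count in wild-type total RNA and 2 had none in KO total RNA, and *Postn*, a matrix protein gene of fibroblasts, was at 0 in all 14 libraries. The part of these transcripts in the *Dab2* result was not tested.

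*Sox17*, an endoderm HMG-box factor, had the most counts of the 5 untested members. Its total RNA counts were 10, 14 and 11 in wild type and 1, 8, 7 and 1 in KO, which is 1.82 ± 0.292 CPM (n = 3) and 0.592 ± 0.499 CPM (n = 4). The wild-type libraries, at 1.56 to 2.14 CPM, did not overlap the KO libraries, at 0.161 to 1.09 CPM, and each clone had 1 culture with a single count. The exact permutation test gave its smallest possible two-sided p, 0.0571, and 0.190 after Benjamini-Hochberg adjustment over 10 such tests. When the minimum was lowered to 1 CPM in 3 libraries, *Sox17* was tested and called in total RNA at a log2 fold change of -1.63 (SE 0.49, edgeR adjusted p = 0.00468). With only 1 count required, it was -1.55 (SE 0.49, edgeR adjusted p = 0.00850). In nascent RNA the counts were 11, 11 and 4 in wild type and 8, 7, 3 and 4 in KO, and the CPM ranges overlapped.

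*Gata6*, the zinc finger factor at the start of primitive endoderm specification, had 3, 7 and 4 counts in wild-type and 2, 2, 3 and 1 in KO total RNA. This is 0.721 ± 0.302 CPM (n = 3) against 0.293 ± 0.104 CPM (n = 4), with ranges that did not overlap (exact permutation p = 0.0571, adjusted 0.190). The nascent counts ran the other way, at 2, 4 and 2 in wild type and 7, 4, 1 and 5 in KO, with overlapping ranges (exact permutation p = 0.457). Neither assay passed when genes with as little as 1 count were tested, with edgeR adjusted p values of 0.236 and 0.866.

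*Cdx2*, the caudal-type homeobox factor of trophectoderm, was not seen in wild-type total RNA and was seen in every KO total RNA library. The counts were 0, 0 and 0 in wild type and 2, 2, 3 and 1 in KO. The exact permutation p was 0.0571 (adjusted 0.190), and the edgeR adjusted p with only 1 count required was 0.0592. In nascent RNA there was 1 count in 1 wild-type library and 2, 5, 0 and 2 counts in KO, with overlapping ranges (exact permutation p = 0.229). Even in KO the pooled total RNA level was 0.297 CPM, with an exact 95% Poisson interval of 0.128 to 0.585 CPM. The level of 3 counts over the wild-type group, 0.155 CPM, lies within that interval, so no fold is given.

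The ratio of total to nascent RNA in 1 culture is a measure of relative mRNA stability, and it was read for the 5 tested members. In wild type its log2 value was 0.21 ± 0.13 for *Nes* (SD, n = 3), -0.05 ± 0.59 for *Dab2*, -0.33 ± 0.31 for *Pou3f1*, -0.58 ± 0.37 for *Otx2* and -0.71 ± 0.35 for *Eomes*, where the median of all tested genes was 0.07. *Nes* stood at percentile 53.9 of the tested genes, *Dab2* at 46.7 and the 3 transcription factor genes *Pou3f1*, *Otx2* and *Eomes* at 39.5, 34.0 and 31.3. All 5 were within the middle 50% of genes, which ran from -1.11 to 0.87.

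**Figure D3:**
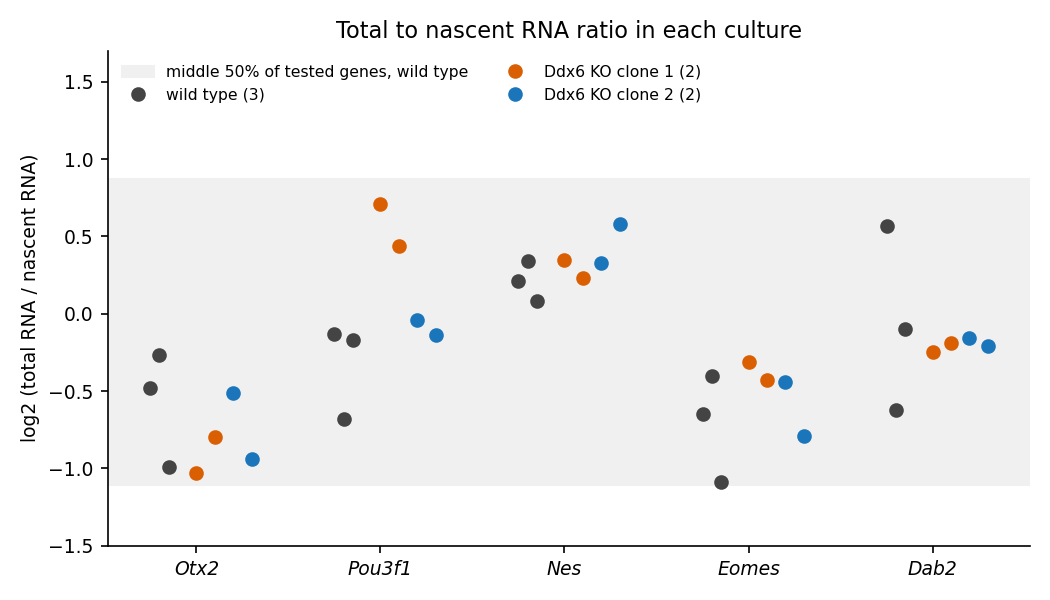
Log2 ratio of total to nascent RNA (TMM-scaled CPM, pseudocount 0.5) of the 5 tested markers in each of the 7 cultures, with the band holding the middle 50% of tested genes in wild type. Wild-type and KO cultures overlap for *Otx2*, *Nes*, *Eomes* and *Dab2*, and also for *Pou3f1*, where clone 1 is highest at 0.71 and 0.44.

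None of the 5 ratios changed by the test, in which 1.08% of all tested genes were called and 12.4% passed by the adjusted p alone. Among the members 0 had an unadjusted p under 0.05 with edgeR, and DESeq2 and limma-voom also gave 0. The fitted change of the log2 ratio was 0.16 for *Nes* (approximate 95% interval -0.10 to 0.43), 0.23 for *Eomes* (-0.21 to 0.67), -0.33 for *Otx2* (-1.0 to 0.34) and -0.21 for *Dab2* (-1.12 to 0.69). *Pou3f1* had the largest value, 0.63 (SE 0.36, interval -0.08 to 1.34, edgeR adjusted p = 0.284). Its ratio was -0.13, -0.68 and -0.17 in the wild-type cultures, 0.71 and 0.44 in clone 1 and -0.04 and -0.14 in clone 2. Clone 1 was above all wild-type cultures, and the second culture of clone 2 was within their range. Ratio changes of any size within these intervals are compatible with these libraries.

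The KO clones did not differ from each other in any tested member by the adjusted p. Of all 14518 tested genes, 25 passed it in nascent RNA and 43 in total RNA, and 0.0689% and 0.0827% were called. By the unadjusted edgeR p under 0.05, 2 of 5 members differed in nascent RNA and 1 of 5 in total RNA. These were *Nes* and *Otx2*, lower in clone 2 by log2 values of -0.35 (SE 0.14) and -0.82 (SE 0.40) in nascent RNA, and *Dab2*, higher in clone 2 by 0.71 (SE 0.29) in total RNA. Keeping genes with as little as 1 count also gave 2 and 1, but in nascent RNA *Dab2* took the place of *Otx2*. The share of all tested genes under that unadjusted p was not counted, so these counts have no background beside them.

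To place the members among other genes of each state, 5 lists of 9 or 10 further markers were read in the same fits. Of these 49 genes 29 passed the minimum. Most mesendoderm and neural genes did not: 8 of 10 and 6 of 10 were below it, against 3 of 10 formative and primed, 2 of 10 trophectoderm and 1 of 9 primitive endoderm genes. The lists are described by counts, with no test of a list. Of all 14518 tested genes, 10.9% were called in nascent and 10.1% in total RNA. By the adjusted p alone 2984 were higher and 3050 lower in nascent RNA, and 2829 were higher and 4498 lower in total RNA.

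Of the formative and primed epiblast genes, 0 of 7 tested were called in either assay. By the adjusted p alone 3 were higher and 2 lower in each assay, and the median log2 fold change was -0.10 in nascent RNA and 0.12 in total RNA. *Dnmt3b*, a de novo DNA methyltransferase gene and the one with the highest CPM of them in wild-type total RNA, went from 120 ± 7.18 CPM in wild-type to 81.3 ± 6.79 CPM in KO total RNA (log2 fold change -0.72, SE 0.07, edgeR adjusted p = 1.2e-12). Its paralog *Dnmt3a*, named here after its values were seen, went the other way, from 65.1 ± 4.88 to 136 ± 14.7 CPM (0.91, SE 0.08, edgeR adjusted p = 5.0e-14). The list thus held genes of both directions, where *Otx2* and *Pou3f1* were both lower.

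Of the mesendoderm genes 2 were tested and 1 was called, *Gsc*, which encodes the organizer homeobox factor goosecoid. It was lower in nascent RNA, at a log2 fold change of -1.61 (SE 0.46, edgeR adjusted p = 0.00348), and in total RNA, where it fell from 5.82 ± 0.749 to 1.91 ± 0.628 CPM (-1.76, SE 0.30, edgeR adjusted p = 1.6e-06). *Gsc* thus had the direction of *Eomes*. The mean of *Gsc* was above 3 CPM only in wild type, so it met the minimum through the genotype where it was high. Its counts were 33 in nascent and 113 in total RNA of wild type, and 19 and 51 in KO. The other tested gene, *Mixl1*, did not pass. It was at -1.03 (SE 0.48, edgeR adjusted p = 0.0781) in nascent and 0.25 (SE 0.46, edgeR adjusted p = 0.677) in total RNA. Of the neural genes 4 were tested and 1 was called, *Olig2*, a bHLH factor of motor neuron and oligodendrocyte progenitors. *Olig2* fell from 25.7 ± 2.59 to 12.4 ± 2.43 CPM in total RNA (-1.21, SE 0.14, edgeR adjusted p = 3.8e-10). In nascent RNA it fell too (-1.53, SE 0.15, edgeR adjusted p = 8.0e-12), in the direction of *Nes*. By the adjusted p alone 0 neural genes were higher, 1 was lower in nascent RNA and 2 in total RNA. The neural medians were -0.26 and -0.44. *Tubb3*, the most abundant of the 4 in wild-type total RNA, was at 0.31 in nascent and 0.17 in total RNA (edgeR adjusted p = 0.314 and 0.318).

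Of the 9 primitive endoderm genes described here 8 were tested, and 0 of these 8 were called in either assay. By the adjusted p alone 2 were higher and 1 lower in nascent RNA, and 2 were higher and 2 lower in total RNA. The most abundant, *Sparc*, which encodes a secreted matrix glycoprotein of parietal endoderm, was at 461 ± 21.2 CPM in wild-type and 568 ± 25.2 CPM in KO total RNA (log2 fold change 0.15, SE 0.05, edgeR adjusted p = 0.0221). In nascent RNA its value was 0.13 (SE 0.07, adjusted p = 0.136). The median of the 8 was 0.04 in nascent and -0.07 in total RNA, where *Dab2* was at 0.95 and 0.74.

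Of the trophectoderm genes 8 were tested. In nascent RNA 2 were called higher, the simple epithelial keratin genes *Krt8* (1.66, SE 0.23, edgeR adjusted p = 2.4e-08) and *Krt18* (1.06, SE 0.22, edgeR adjusted p = 6.1e-05), and 1 lower, *Gata3*, a trophoblast zinc finger factor (-2.05, SE 0.31, edgeR adjusted p = 1.3e-07). In total RNA the keratin gene *Krt7* was called higher (1.09, SE 0.33, edgeR adjusted p = 0.00496) and the trophoblast bHLH factor gene *Ascl2* lower (-1.43, SE 0.30, edgeR adjusted p = 6.3e-05). The called genes thus went in both directions. By the adjusted p alone 3 were higher and 1 lower in nascent RNA, and 4 were higher and 2 lower in total RNA. *Krt8* (0.94, edgeR adjusted p = 3.5e-11) and *Krt18* (0.64, edgeR adjusted p = 1.1e-05) were higher in total RNA too, short of the fold threshold. *Gata3* was not called in total RNA (-0.39, edgeR adjusted p = 0.423). *Krt7* (-0.81, edgeR adjusted p = 0.223) and *Ascl2* (0.94, edgeR adjusted p = 0.181) were not called in nascent RNA. For the total to nascent ratio *Gata3* (1.67, edgeR adjusted p = 0.0190) and *Krt7* (1.90, edgeR adjusted p = 0.0366) were called higher. *Ascl2* was called lower (-2.37, edgeR adjusted p = 0.00713), where 1.08% of all tested genes were called. The other lists had 0 such calls. Counts behind the called ratios were low. *Krt7* had 17 nascent counts in each genotype, and *Ascl2* had 9 in wild type and 31 in KO. *Gata3* had 37 total RNA counts in wild type and 44 in KO. The trophectoderm median was 0.34 in nascent and 0.27 in total RNA.

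**Figure D4:**
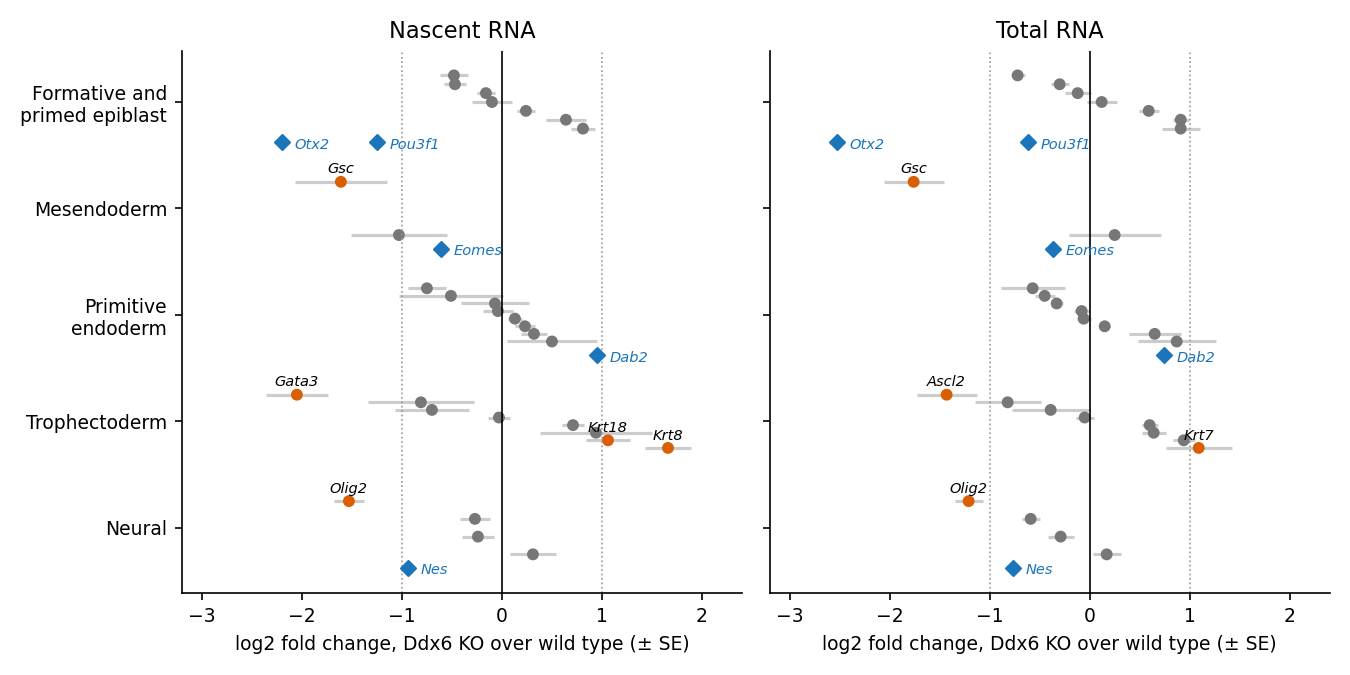
Log2 fold change (*Ddx6* KO over wild type, ± SE for circles) of the 29 tested genes of the 5 marker lists in nascent RNA and total RNA. Circles are list genes, orange and named where called, blue diamonds are the members of the same state, and dotted lines are at -1 and 1. *Otx2*, at -2.20 and -2.53, lies further from 0 than any of the list genes in either assay.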

How the data were processed

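Nascent (4sU) and total RNA of 7 ESC cultures were analysed. Per the labels and file headers, the authors used cutadapt 1.14 for trimming, STAR 2.5.3a for alignment to mm10 and featureCounts 1.5.3 for strand-specific counting over the exons of Gencode M14, from which rRNA genes had been taken out. Raw counts per gene were deposited. Gene lengths are as deposited. The 92 spike-in rows had 0 counts. The 2 runs of each 4sU library, single-end and paired-end, were summed, so reads and read pairs were added.

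Genes were kept that reached 3 CPM in 3 or more libraries. They were normalized with TMM and fitted with edgeR 4.0.16 (quasi-likelihood, robust) in R 4.3.3, with genotype, assay and their interaction, the last giving the change in the total to nascent ratio. TMM factors were 0.925 to 0.942 in wild type and 1.03 to 1.07 in KO. P values were Benjamini-Hochberg adjusted within each contrast. Exact permutation tests used scipy 1.17.1. The fits were tested on simulated data first. Positions, UTRs and overlaps come from Gencode M21 (GRCm38, the same build), with 1 principal transcript per gene.

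The members, lists and tests were chosen with earlier results of these data known. The primitive endoderm list held 1 further gene, which is not reported here and is left out of that list's counts and medians. All 10 members, each list gene called in nascent or total RNA, and the most abundant tested gene of a list with none were named. Of the list genes, *Dnmt3a*, *Mixl1* and *Tubb3* were named beyond this rule, after their values were seen. Alternatives were DESeq2 1.42.0, limma-voom (limma 3.58.1), other scalings and filters, single runs, single clones, blocks, and leaving out each culture.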

Additional observations from a re-analysis of the deposited data

Results flagged for a closer look

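Of 20 sets of 4 KO values examined (10 markers in 2 assays), 4 had 1 library far from the others by Dixon's test at the 95% level. Chance flags about 1 in 20 such sets, but in 3 of the 4 the gap is forced, because 1 library held the only counts. The gap over the range was 0.853 for nascent *Pou3f1*, whose first clone 1 culture was at 3.34 CPM beside 4.07 to 4.20 CPM. It was 1 for *Fgf5* in nascent RNA, for *Fgf5* in total RNA and for nascent *T*, where a single KO library held all counts, in each case the first culture of clone 1, with 1, 2 and 1 counts. Without that culture nascent *Pou3f1* was at -1.18 (edgeR adjusted p = 0.00179).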

How the results depend on the processing

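*Otx2* in both assays and nascent *Pou3f1* were called in every alternative run, with log2 fold changes of -2.64 to -1.83, -2.89 to -2.20 and -1.42 to -1.05, and *Nes* passed the adjusted p in every one. In nascent RNA 2 members were called. By library size only and with no filter beyond 1 count it was 3, *Dab2* joining as higher at 1.16 and 1.01. With clone 2 only it was 4, by the adjusted p alone 5, and leaving out 1 culture at a time gave 2 to 4, where *Nes* joined without the second culture of clone 1. In total RNA 1 was called. It was 2 with no filter beyond 1 count and with at least 1 CPM in 3 libraries (*Sox17* joined), 2 with clone 2 only, 5 by the adjusted p alone, and 1 to 2 leaving out 1 culture, where *Dab2* joined at 1.01 without the first wild-type culture. With no filter beyond 1 count, 0 members were left untested. No member's ratio was called in any alternative. The ratio change of *Eomes* turned to -0.06 in the second run only, and that of *Dab2* to 0.13 without the first wild-type culture, the upper end of -0.46 to 0.13 over all such fits. The causes were not tested.

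By the adjusted p, the fits without 1 culture lost *Dab2* in nascent RNA (without the first or second wild-type culture or either clone 2 culture, 0.0565 to 0.0950) and in total RNA (without the second wild-type culture or either clone 2 culture, 0.0582 to 0.212). They lost total *Pou3f1* without the first wild-type, the third wild-type or either clone 2 culture (0.0588 to 0.0758), and total *Eomes* without the second wild-type, the second clone 1 or either clone 2 culture (0.0609 to 0.273). DESeq2 and limma-voom lost nascent *Dab2* (0.0534 and 0.0784), DESeq2 also total *Eomes* (0.0695) and limma-voom also total *Dab2* (0.0731).

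The labels do not say whether a replicate number pairs wild-type with KO samples. Correlations of deviations between libraries of the same number ran from -0.059 to 0.149. This cannot decide it, because the 2 assays of a culture, which share RNA, gave only 0.00596 to 0.0825. The replicate block gave 3 called members in nascent RNA, *Dab2* joining at 1.03, with 1 in total RNA and 0 for the ratio, and total *Eomes* at an adjusted p of 0.0702. A block by culture, within which both assays share RNA, gave 0 for the ratio. The other 5 members, with 4 to 100 counts over all libraries, were tested only under lower filters.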
